A study of Mus musculus with 12 samples.

Results

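These retinas come from the 3 mice of the study that received no ganciclovir (GCV), and they set the eye that underwent pressure injury against the fellow eye of the same mouse. They are 6 of the 12 sequenced libraries, and they were chosen by their labels as the IOP‐treated and the control retina of mouse 3, mouse 4 and mouse 6. No measured value entered the choice. All 6 mice of the study were 12 to 16 weeks old and carried p16‐3MR, a transgene in which the p16 regulatory region drives a fusion of Renilla luciferase, a red fluorescent protein and a viral thymidine kinase that makes GCV toxic. The transgene was thus present in the control retinas too, and without GCV its kinase had no drug to act on. A single eye of each mouse was infused with saline through the anterior chamber until its intraocular pressure (IOP) stood at 85 to 90 mm Hg, where it was held for 60 min. The fellow eye was the control, no infusion of it is described, and puncture and pressure therefore cannot be told apart. The mice without GCV were sham‐treated with PBS, the 3 other mice received GCV at 25 mg/kg daily, and retinas were taken on day 3.

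A pressure far above that of the blood in the eye stops its flow, so the model joins ischemia with reperfusion once the pressure is released. Retinal ganglion cells (RGCs), whose axons form the optic nerve, are the neurons known to be lost first, while Mueller glia and astrocytes turn reactive and microglia, the resident phagocytes, are activated. Injured retina is known to signal through interferons, through gp130 cytokines such as ciliary neurotrophic factor (CNTF) with the transcription factor STAT3, and through growth factors released by photoreceptors and glia.

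Each library was read as FPKM (fragments scaled to transcript length and library size), and genes were compared as log2(FPKM + 1), so that the changes of low genes are understated. The eyes were paired by mouse in limma, and a gene was called at a Benjamini-Hochberg adjusted p under 0.05 over 18509 genes. All changes below are IOP‐treated minus control. Where 3 values are given they stand in the order mouse 3, mouse 4 and mouse 6, and a change is called in this paired fit unless another is named. The IOP‐treated retina of mouse 6 stood apart with 14844 genes above 0 and an estimated 3980000 fragments, against 16151 to 16589 genes and 7720000 to 9040000 fragments in the other 5 libraries. Results that rest on it are given by mouse. Rods, cones, bipolar, amacrine and ganglion cells and Mueller glia were all represented by their markers in the control retinas, from 1052 FPKM of Nrl (the transcription factor of rods) in mouse 3 to 9.07 FPKM of Pou4f1 (an RGC transcription factor).

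After pressure injury, the genes called higher included genes of interferon response, antigen presentation and phagocytes and single growth factors, and few genes were called lower. Over all genes, called or not, 18.3% were higher and 19.5% lower in every mouse. Of 18509 genes, 75 were called, 72 higher and 3 lower, so that 96% of the calls were higher (95% Clopper-Pearson interval 88.8% to 99.2%, which treats genes as independent). The called share of all genes was 0.405%, or 0.389% for higher and 0.0162% for lower. For each of the 75 genes, the values of the 3 IOP‐treated retinas lay outside the range of the 3 controls, which held for 11.7% of all genes in the higher and 8.81% in the lower direction. The rises called ran from 0.50 to 4.93 on the log2 scale. The count depended on whether the GCV mice were in the fit. With the same pairing and only these 6 libraries, 0 of 18014 genes passed the adjusted threshold and 2680 had an unadjusted p under 0.05. In the fit with all mice 3486 of 18509 (18.8%) had an unadjusted p under 0.05, 1668 higher (9.01%) and 1818 lower (9.82%). Without the pairing 306 genes were called (1.65% of all genes), 263 higher (1.42%) and 43 lower (0.232%), and 73 of the 75 were among them. Without mouse 3, mouse 4 or mouse 6, the paired fit called 1, 1 and 5 genes. None of the 75 was among the calls without mouse 3 or without mouse 4, where the single gene called was lower, and 2 of the 75, Cebpd and Edn2, were among those without mouse 6.

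**Figure D1:**
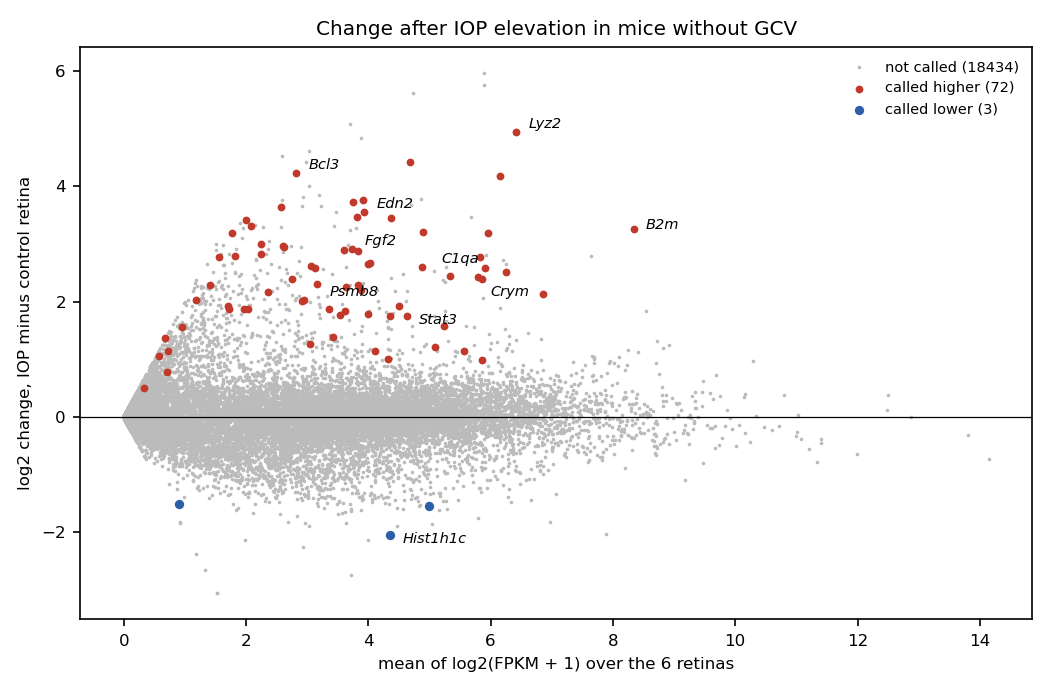
Change after IOP elevation (IOP‐treated minus control, on the log2(FPKM + 1) scale) against the mean log2(FPKM + 1) of the 6 retinas without GCV, 1 point per gene. Of the 75 called genes, 72 lie above the line at 0 and 3 below it, from Lyz2 at 4.93 to Hist1h1c at -2.04.

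The first group of called genes is known to be induced by interferon, and whether interferon induced them here was not tested. Interferons bind surface receptors, STAT proteins and IRF9 then switch on a shared set of genes through a promoter element called ISRE, and the products block viruses, cut proteins into peptides and carry these to the cell surface. The gene with the smallest p of all was Psmb8, a catalytic subunit of the immunoproteasome. Psmb8 stood at 3.29, 2.6 and 3.15 FPKM in control and 23.1, 17.7 and 16.4 FPKM in IOP‐treated retinas. The controls lay within 1 FPKM of each other and every IOP‐treated retina was far above them, and the rise of 2.31 ± 0.16 SE on the log2 scale (adjusted p = 0.0283) was similar in the 3 mice.

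Of 26 interferon effector genes, 8 were called higher and 0 lower, and all 26 were higher in the IOP‐treated retina of every mouse, as were 18.3% of all genes. Their median change was 1.61, beside 0.00 for all genes, and by mouse it was 1.72, 1.87 and 1.18. Oasl2, an antiviral protein of the oligoadenylate synthetase family, stood at 5.07, 5.32 and 6.02 FPKM in control and 30.5, 41.3 and 50.2 FPKM in IOP‐treated retinas and rose by 2.66 ± 0.19 SE on the log2 scale (adjusted p = 0.0283). Ube2l6, the conjugating enzyme for the ubiquitin-like protein ISG15, stood at 4.86, 4.94 and 6.2 FPKM in control and 20.7, 21.3 and 19.7 FPKM in IOP‐treated retinas (log2 change 1.77 ± 0.15 SE, adjusted p = 0.0283). The 3 injured retinas thus differed from each other by less than 2 FPKM in this gene. Isg15 itself went from 2.19, 1.86 and 1.75 to 14.7, 18.8 and 10.8 FPKM (log2 change 2.40 ± 0.27 SE, adjusted p = 0.0355). Zbp1, a sensor of Z-form nucleic acid that can start necroptosis, was near 0 in every control and stood at 12.6, 14 and 9.97 FPKM after injury (log2 change 3.41 ± 0.29 SE, adjusted p = 0.0283). Ifit1, Rtp4, Ifi44 and Ifitm3 were the other called effectors, with rises of 2.61, 2.96, 1.56 and 2.57. Ifi44 stayed below 3 FPKM in every retina, where few fragments carry the value.

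Among 18 interferon regulatory factors and nucleic acid sensors 2 were called, Zbp1 and Irf9, a DNA-binding partner of STAT proteins. Irf9 stood at 4.96, 4.5 and 6.84 FPKM in control and 46.4, 33.7 and 38 FPKM in IOP‐treated retinas (log2 change 2.65 ± 0.27 SE, adjusted p = 0.0327). Irf7, the amplifier of type I interferon, was not called (9.2, 7.51 and 11.7 FPKM in control and 46.8, 36.5 and 26.5 FPKM in IOP‐treated retinas, adjusted p = 0.0996), although its groups did not overlap. None of the 15 interferon-inducible GTPases was called in the paired fit and 9 were called without the pairing. Gbp2 is an example, at 1.8, 1.34 and 2.55 FPKM in control and 30.2, 20.3 and 8.6 FPKM in IOP‐treated retinas, where the change of 1.43 in mouse 6 was the smallest of the 3. No PARP family gene of 13 was called, and Parp3 had 3.81, 3.16 and 5.43 FPKM in control and 15.8, 11.3 and 11.6 FPKM in IOP‐treated retinas (adjusted p = 0.0777).

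3 promoters are shown because they belong to called genes of the interferon and MHC class I lists and hold the letters of the ISRE (GAAA, any 2 bases, GAAA) on either strand within 250 bases before the gene start (RefSeq, GRCm38.p6). The sequences run 5′ to 3′ on the strand of the gene, and capitals mark the ISRE letters, which read TTTC, any 2 bases, TTTC where the element lies on the other strand.
B2m: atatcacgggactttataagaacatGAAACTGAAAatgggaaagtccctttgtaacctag
Ifit1: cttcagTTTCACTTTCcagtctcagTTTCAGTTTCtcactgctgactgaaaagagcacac
Isg15: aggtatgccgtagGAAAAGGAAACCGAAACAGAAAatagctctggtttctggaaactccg
The B2m stretch is chr2:122147523-122147582 and its element ends 130 bases before the start. The Ifit1 stretch is chr19:34640779-34640838 and holds 2 elements. The Isg15 stretch is chr4:156200850-156200909 on the minus strand and holds 3 overlapping matches. The ISRE letters were present in 10.6% of the 66 promoters matched to the genes called higher (7 of 66) and in 2.71% of the 17982 promoters of all genes tested. The other 4 were those of Aif1, Ctss, Lgals9 and Spp1. Of the 48 promoters of all interferon genes listed, called or not, 33.3% held the letters, against 2 of the 8 promoters (25%) of those called. The GAS element of STAT dimers (TTCNNNGAA) was found in 3.03% of the promoters of genes called higher against 6.12% of all and in 27.1% of those of the listed interferon genes, but in 0 of the 8 promoters of those called. The AP‐1 element (TGANTCA) was found in 10.6% of the promoters of genes called higher against 5.33% of all, and the C/EBP‐ATF element (TGATGNAA) in 3.03% against 2.24%. ISRE and GAS letters can overlap, and a match in these windows is a description of sequence only. Of the 72 genes, 56 had a promoter in the table.

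Genes of antigen presentation were called as well, in both MHC classes. Of 19 genes of MHC class I and its peptide supply 4 were called, all higher, with a median change of 1.17. B2m, the light chain of every class I molecule, was the most abundant of them and stood at 82.4, 81.2 and 165 FPKM in control and 694, 588 and 2448 FPKM in IOP‐treated retinas (log2 change 3.26 ± 0.35 SE, adjusted p = 0.0327). The retina of mouse 6 held the highest B2m in both groups. The heavy chains H2‐D1 and H2‐K1 rose by 2.51 and 2.39, and their values may share reads with near-identical family members. The peptide transporter Tap1 was not called (0.878, 0.907 and 1.15 FPKM in control and 12.6, 8.66 and 5.11 FPKM in IOP‐treated retinas, adjusted p = 0.0996). Of 9 MHC class II genes 3 were called, with a median of 2.94 (3.22, 2.81 and 1.87 by mouse). H2‐Aa went from 3.57, 0.972 and 7.36 to 46.3, 37.6 and 55 FPKM (log2 change 3.47 ± 0.42 SE, adjusted p = 0.0391), and H2‐Ab1 from 5.15, 2.46 and 10.6 to 56.3, 45.4 and 118 FPKM. Ctss, the protease that trims the class II invariant chain, stood at 15.8, 17.7 and 27.2 FPKM in control and 201, 130.1 and 252 FPKM in IOP‐treated retinas. Cd74, that invariant chain, had a larger change of 3.68 and an adjusted p of 0.0559, just outside the threshold. Ciita, the master regulator of class II, stayed at or below 0.63 FPKM in every retina.

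**Figure D2:**
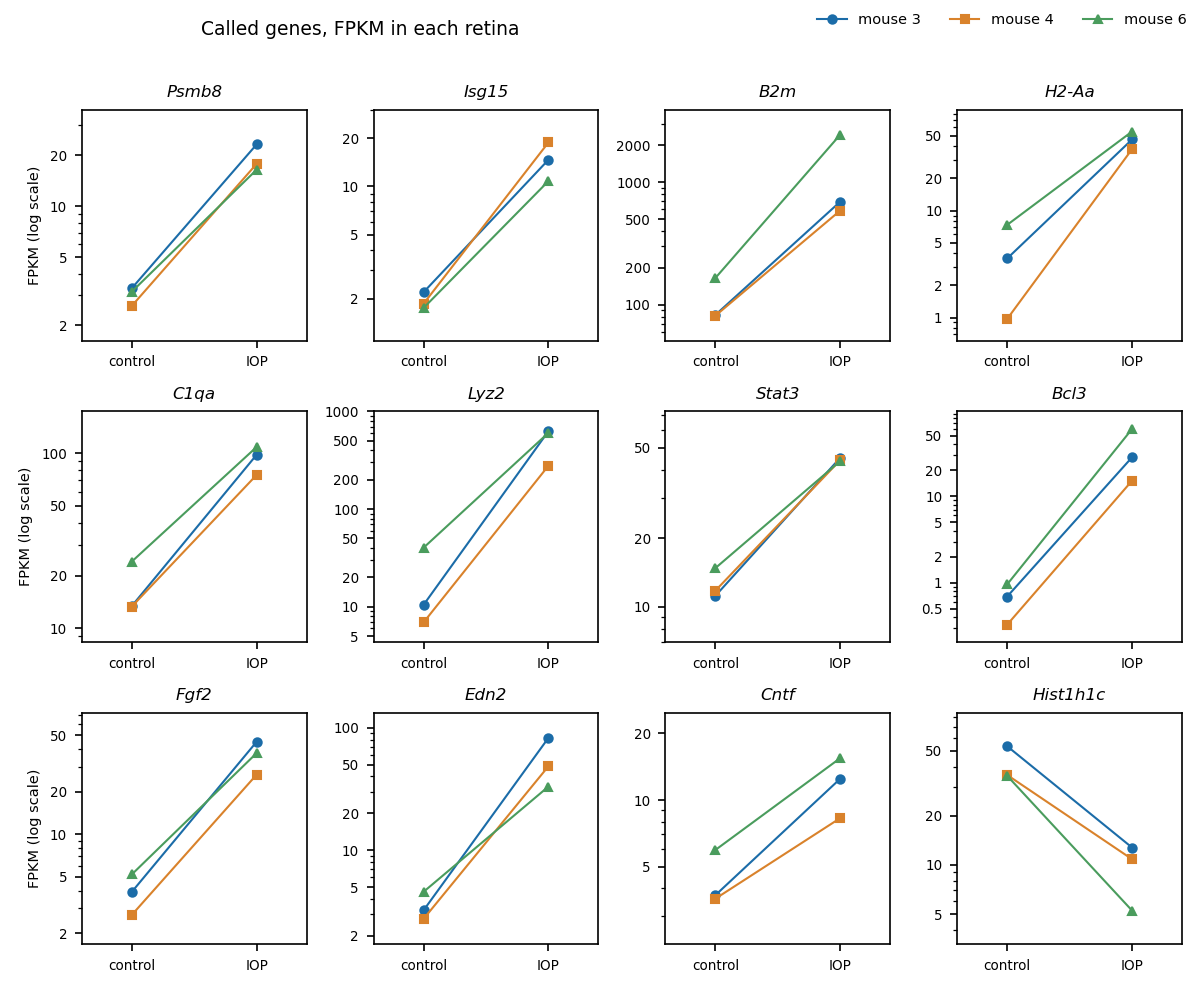
FPKM of 12 called genes in each retina (log axis, range set for each gene). Lines join the control and the IOP‐treated retina of 1 mouse. In each panel the 3 IOP‐treated values lie outside the range of the 3 controls, above it for 11 genes and below it for Hist1h1c.

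Genes of activated microglia and other phagocytes were called higher. In bulk tissue, more cells of a type and more RNA per cell cannot be told apart, nor can fewer cells and less RNA per cell. Of 19 genes of activated microglia and phagocytes 5 were called, all higher (median 1.43), and 18 of 19 were higher in all 3 mice. Lyz2, the lysozyme of macrophages, had the largest rise of all called genes, from 10.4, 6.9 and 40.1 to 627, 278 and 604 FPKM (log2 change 4.93 ± 0.52 SE, adjusted p = 0.0327). Its control in mouse 6 was already at 40.1 FPKM, well above the other controls. Cd68, a lysosomal protein of phagocytes, went from 4.06, 3.55 and 6.47 to 126, 43.6 and 293 FPKM (log2 change 4.41 ± 0.56 SE, adjusted p = 0.0452) and varied widely between the injured retinas, with mouse 4 lowest. Spp1, the secreted protein osteopontin, had the same order, from 13, 15.7 and 19.2 to 379.8, 112 and 652 FPKM (log2 change 4.18 ± 0.54 SE, adjusted p = 0.0485). Tyrobp, the signaling adaptor of TREM2, and Clec7a, the beta-glucan receptor dectin‐1, rose by 3.20 and 2.82.

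The complement genes called were C1qa and C1qb, of 19 tested, which encode chains of the initiator C1q that tags synapses and debris. C1qa stood at 13.4, 13.3 and 24 FPKM in control and 98.1, 75.2 and 109 FPKM in IOP‐treated retinas (log2 change 2.44 ± 0.22 SE, adjusted p = 0.0296), and C1qb at 14.5, 20.6 and 29.3 FPKM in control and 149, 89.5 and 236 FPKM in IOP‐treated retinas (log2 change 2.77 ± 0.30 SE, adjusted p = 0.0327). C1qc, the remaining chain, had 6.83, 6.8 and 15.8 FPKM in control and 76.1, 42.6 and 50.6 FPKM in IOP‐treated retinas and an adjusted p of 0.0528. C3, the central component, was not called (1.78, 0.441 and 3.46 FPKM in control and 11, 12.8 and 10.5 FPKM in IOP‐treated retinas, adjusted p = 0.15), and C4b was higher in mice 3 and 4 and lower in mouse 6. Of 14 genes of resting microglia (median 0.71) 1 was called, Aif1 (IBA1), from 1.64, 1.08 and 1.62 to 9.73, 8.06 and 12.1 FPKM, with no overlap between the groups. P2ry12 and Tmem119, which mark resident microglia, were not called. P2ry12 had 1.66, 1.97 and 2.9 FPKM in control and 2.84, 2.84 and 2.98 FPKM in IOP‐treated retinas, and Tmem119 had 0.74, 0.803 and 1.56 FPKM in control and 2.11, 3.05 and 1.17 FPKM in IOP‐treated retinas, lower in mouse 6.

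Markers of blood-borne leukocytes were low in the controls. Their summed level was 3.26, 2.84 and 8.18 FPKM in control and 52.0, 49.2 and 143 FPKM in IOP‐treated retinas. None of the 16 tested was called (median 0.44) and 10 were higher in every mouse. Ccr2, the chemokine receptor of inflammatory monocytes, had 0.188, 0.0962 and 0.234 FPKM in control and 3.24, 3.94 and 5.62 FPKM in IOP‐treated retinas (adjusted p = 0.0533) and Ly6c2 had 0, 0.346 and 0 FPKM in control and 4.94, 7.74 and 11.6 FPKM in IOP‐treated retinas (adjusted p = 0.0804). The neutrophil gene S100a8 had 0.579, 0.97 and 2.04 FPKM in control and 11, 16.2 and 91.1 FPKM in IOP‐treated retinas and made up most of the sum in the injured retina of mouse 6. The T cell marker Cd3e did not exceed 0.271 FPKM in any retina, and Ly6g was listed at 0 throughout. What part such cells had in the phagocyte and antigen presentation genes was not tested. Of 23 chemokine genes Ccl2, the ligand of CCR2, was called. It stood at 0.202, 0 and 0.179 FPKM in control and 12.1, 10.0 and 6.52 FPKM in IOP‐treated retinas (log2 change 3.19 ± 0.35 SE, adjusted p = 0.035), with 1 control listed at 0. Ccl12, another ligand of CCR2, had 0.703, 0 and 0.31 FPKM in control and 6.75, 12.1 and 13.1 FPKM in IOP‐treated retinas and an adjusted p of 0.0514.

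Growth factors and cytokines formed a further group, in which single members rose while the median lay near 0. Of 24 growth factor genes 3 were called and the median change was 0.02. Edn2 (endothelin‐2), which stressed photoreceptors are known to release, stood at 3.23, 2.75 and 4.57 FPKM in control and 82.6, 48.4 and 33.1 FPKM in IOP‐treated retinas (log2 change 3.55 ± 0.30 SE, adjusted p = 0.0283). Fgf2, a survival factor for photoreceptors, stood at 3.92, 2.7 and 5.21 FPKM in control and 45, 26.4 and 37.4 FPKM in IOP‐treated retinas (log2 change 2.91 ± 0.23 SE, adjusted p = 0.0283). Nudt6 was called as well, at 5.49, 4.55 and 6.5 FPKM in control and 47, 25.5 and 23.5 FPKM in IOP‐treated retinas, and on the GRCm38.p6 annotation its gene overlaps the Fgf2 gene by 5125 bases of chromosome 3 (Fgf2 chr3:37348477-37410106, Nudt6 chr3:37404982-37420242). Nudt6 is known as the antisense partner of Fgf2. The libraries were made with a stranded kit, but whether strand was used in counting is not stated, so the reads of the pair cannot be told apart. Cntf, a cytokine that protects photoreceptors and RGCs, stood at 3.72, 3.59 and 5.96 FPKM in control and 12.5, 8.3 and 15.5 FPKM in IOP‐treated retinas (log2 change 1.26 ± 0.15 SE, adjusted p = 0.0391). Bdnf, the neurotrophin of RGCs, had 2.46, 2.21 and 3.09 FPKM in control and 1.18, 2.08 and 1.05 FPKM in IOP‐treated retinas (adjusted p = 0.307), and Vegfa, the hypoxia-driven angiogenic factor, had 30.4, 35.8 and 28.7 FPKM in control and 23.1, 29.8 and 22 FPKM in IOP‐treated retinas (adjusted p = 0.206).

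CNTF acts through the receptor chain gp130 on STAT3, and Stat3 was the other of the 2 genes called among 27 of gp130 cytokines and JAK‐STAT signaling. Stat3 stood at 11.2, 11.8 and 14.8 FPKM in control and 45.2, 44.2 and 43.7 FPKM in IOP‐treated retinas (log2 change 1.75 ± 0.18 SE, adjusted p = 0.0327), and the 3 injured retinas lay within 2 FPKM of each other. Socs3, the feedback inhibitor that STAT3 induces, had a larger change of 2.45 with a wider spread (1.91, 1.5 and 3.27 FPKM in control and 22.3, 15.1 and 12.5 FPKM in IOP‐treated retinas) and an adjusted p of 0.0781. Lif, a cytokine that Mueller glia make after injury, did not exceed 0.505 FPKM, and Il6 did not exceed 0.136 FPKM.

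Genes of reactive glia had large changes that missed the threshold. Of 13 genes of the pan-reactive astrocyte list 0 were called in the paired fit and 5 without the pairing, the median change was 1.86, and 11 of 13 were higher in all 3 mice. Gfap, the intermediate filament of reactive astrocytes and Mueller glia, stood at 12.2, 9.69 and 33.3 FPKM in control and 87, 87.5 and 79.5 FPKM in IOP‐treated retinas (log2 change 2.34 ± 0.34 SE, adjusted p = 0.0569), and Serpina3n at 12.3, 9.43 and 85.4 FPKM in control and 209.9, 108 and 178 FPKM in IOP‐treated retinas (log2 change 2.80 ± 0.51 SE, adjusted p = 0.0928). In both genes the control of mouse 6 was the highest control and its change the smallest. Lcn2, a siderophore-binding acute phase protein, had 17.5, 9.58 and 17.7 FPKM in control and 116, 262 and 157 FPKM in IOP‐treated retinas (log2 change 3.46 ± 0.53 SE, adjusted p = 0.0655). Vim had 60.1, 69.2 and 81.8 FPKM in control and 196, 199.8 and 149 FPKM in IOP‐treated retinas (adjusted p = 0.152). Of the 11 genes linked to the A1 state 2 were called, Psmb8 and H2‐D1, which the MHC class I list holds too, and of the 12 of the A2 state 0.

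Transcription factors of acute stress responded in part. Bcl3, a nuclear cofactor of NF‐kB, was the sole gene called of 28 for NF‐kB and innate receptors. It stood at 0.694, 0.329 and 0.961 FPKM in control and 28.2, 15.1 and 59.9 FPKM in IOP‐treated retinas (log2 change 4.22 ± 0.41 SE, adjusted p = 0.0326). Of the 28, 21 were higher in every mouse, as were 18.3% of all genes. Tnfaip3, the most abundant of the 28, had 91.1, 85.8 and 87.5 FPKM in control and 45.2, 42 and 36.1 FPKM in IOP‐treated retinas. That gene was lower in every mouse, as were 19.5% of all genes (adjusted p = 0.108 with the pairing and 0.0354 without it). Cebpd, a C/EBP factor of the acute phase response, stood at 3.37, 2.88 and 4.21 FPKM in control and 49.4, 38.9 and 17.3 FPKM in IOP‐treated retinas (log2 change 2.90 ± 0.33 SE, adjusted p = 0.0355). Of 20 AP‐1 and immediate early genes Fosb was called (0.605, 0.608 and 0.984 FPKM in control and 5.24, 3.89 and 7.06 FPKM in IOP‐treated retinas, log2 change 1.86 ± 0.19 SE, adjusted p = 0.0327), whereas Atf3, the classical marker of injured axons, had 6.83, 3.88 and 4.75 FPKM in control and 23.7, 16.5 and 28.6 FPKM in IOP‐treated retinas (adjusted p = 0.0971) and Jun had 14.3, 14.9 and 15.7 FPKM in control and 29.4, 23.2 and 44 FPKM in IOP‐treated retinas (adjusted p = 0.123). Gadd45b, a stress sensor of p38 and JNK signaling, was called of 19 p53 and DNA damage genes (3.4, 5.39 and 4.06 FPKM in control and 41, 31.1 and 41 FPKM in IOP‐treated retinas, log2 change 2.88 ± 0.32 SE, adjusted p = 0.0355). The p53 target Cdkn1a (p21) had 1.25, 1.45 and 1.91 FPKM in control and 6.64, 5.7 and 10.6 FPKM in IOP‐treated retinas (adjusted p = 0.131). Tnf stayed at or below 0.556 FPKM.

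Of 16 genes of axon injury and regeneration Ecel1, a peptidase induced in injured neurons, was called. It stood at 0.19, 0.203 and 0 FPKM in control and 2.1, 7.13 and 2.86 FPKM in IOP‐treated retinas (log2 change 2.03 ± 0.26 SE, adjusted p = 0.0485), and mouse 4 had the highest level. Sprr1a had 2.07, 1.05 and 10.1 FPKM in control and 8.24, 11.9 and 36.6 FPKM in IOP‐treated retinas (adjusted p = 0.0664), with a high control in mouse 6, and Gap43, the growth cone protein, had 32.4, 36.8 and 41.5 FPKM in control and 21.6, 59.8 and 33.2 FPKM in IOP‐treated retinas, higher in mouse 4 and lower in mice 3 and 6.

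Of 22 proliferation genes, 20 were higher in every mouse and 2 were called, both near 0 in the controls. Mki67, the marker of cycling cells, stood at 0.0259, 0 and 0.0925 FPKM in control and 1.04, 1.29 and 1.14 FPKM in IOP‐treated retinas (log2 change 1.05 ± 0.13 SE, adjusted p = 0.0432), and Top2a, a topoisomerase of dividing cells, at 0.102, 0.0217 and 0.249 FPKM in control and 1.02, 1.79 and 1.63 FPKM in IOP‐treated retinas (log2 change 1.13 ± 0.13 SE, adjusted p = 0.0371). Hmmr, a mitotic spindle protein outside the list, was called as well, at 0.37, 0.518 and 0.60 FPKM after injury. At this depth levels of about 1 FPKM rest on few fragments. Of 18 senescence genes 0 were called (median 0.29). Cdkn2a, which encodes p16Ink4a and whose regulatory region drives the transgene, had 0.189, 0.16 and 0.301 FPKM in control and 0, 0.334 and 0 FPKM in IOP‐treated retinas (adjusted p = 0.721) with overlapping groups. Cdkn2b had 0.84, 0.358 and 0.0934 FPKM in control and 1.54, 0.466 and 0.404 FPKM in IOP‐treated retinas. Of 25 genes of cell death 0 were called, with a median of 0.62 and 16 higher in every mouse. Casp8, the initiator of receptor-driven apoptosis, had 0.479, 0.293 and 0.969 FPKM in control and 2.13, 1.88 and 5.21 FPKM in IOP‐treated retinas (adjusted p = 0.157).

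Of the 75 called genes 37 were in none of the 44 lists, 35 of them higher and 2 lower, while 5.16% of the 737 list genes were called, and those outside the lists that are named here were chosen after their values were seen. Crym (mu-crystallin), a thyroid hormone-binding protein, is in a list, and it had the second smallest p of all genes. It stood at 24, 22.5 and 22 FPKM in control and 148, 109 and 127 FPKM in IOP‐treated retinas (log2 change 2.42 ± 0.17 SE, adjusted p = 0.0283), so that the controls lay within 3 FPKM of each other and the groups were far apart. It was the 1 gene called of 14 in the list of Mueller glia homeostasis, whose median was -0.33. Antxr2, a receptor for collagen and for anthrax toxin, stood at 4.81, 3.8 and 4.57 FPKM in control and 19.2, 15.8 and 21.3 FPKM in IOP‐treated retinas (log2 change 1.87 ± 0.15 SE, adjusted p = 0.0283), and Fxyd5, a regulator of the sodium pump and of cell adhesion, at 2.1, 1.92 and 4.66 FPKM in control and 36.1, 25.7 and 118 FPKM in IOP‐treated retinas (log2 change 3.72 ± 0.30 SE, adjusted p = 0.0283). Aldh1a1, a retinal dehydrogenase that makes retinoic acid, stood at 34.8, 34.5 and 53.7 FPKM in control and 70.5, 65.4 and 112 FPKM in IOP‐treated retinas (log2 change 0.98 ± 0.085 SE, adjusted p = 0.0283). Its values rose by a similar factor in every mouse from a mouse 6 control that was higher than the rest, and it was not called without the pairing (adjusted p = 0.176). Lad1, Rfx2, Lrrc2 and Slc25a37, a mitochondrial iron importer, rose by 2.94, 2.01, 2.60 and 1.79. Agtpbp1, which removes glutamate residues from tubulin tails, stood at 54.9, 49.9 and 57.8 FPKM in control and 233, 169 and 355 FPKM in IOP‐treated retinas (log2 change 2.13 ± 0.24 SE, adjusted p = 0.0355), and Sat1, the enzyme that breaks down polyamines, at 31.3, 32.1 and 29.2 FPKM in control and 66.3, 69.3 and 72.6 FPKM in IOP‐treated retinas (log2 change 1.14 ± 0.14 SE, adjusted p = 0.0386). Ahr, the aryl hydrocarbon receptor, rose by 1.13 and Btc, a ligand of the EGF receptor, by 1.75. The survival genes Bcl2a1b and Bcl2a1d were both called, the latter listed at 0 in all 3 controls, and as near-identical copies they may share reads. Further called genes are known from leukocytes: Ly86, Ms4a7, Ms4a4c, Cd72, Cd52, Lsp1, Lilrb4a and Ifi204, of which Cd52 had the largest change, 3.76.

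Only 3 genes were called lower. Hist1h1c, a linker histone, stood at 53.3, 35.5 and 35.1 FPKM in control and 12.8, 10.8 and 5.25 FPKM in IOP‐treated retinas (log2 change -2.04 ± 0.20 SE, adjusted p = 0.0322), and no other of the 15 clustered histone genes tested was called. Ppap2c, a lipid phosphate phosphatase, stood at 58.3, 49.1 and 52.2 FPKM in control and 24.1, 17.3 and 13 FPKM in IOP‐treated retinas (log2 change -1.54 ± 0.19 SE, adjusted p = 0.0413). Gm2011, an unnamed locus, stood at 1.44, 3.84 and 1.64 FPKM in control and 0, 0.364 and 0 FPKM in IOP‐treated retinas (adjusted p = 0.0355), with 2 injured retinas listed at 0. Among 12854 genes averaging 1 FPKM or more, 13 were at least 2-fold lower in every mouse and 328 at least 2-fold higher. The 13 included Arr3, the cone arrestin, at 117, 128 and 134 FPKM in control and 50.5, 44 and 47.6 FPKM in IOP‐treated retinas, which was not called (adjusted p = 0.164) although its 3 injured retinas lay within 7 FPKM of each other. Also among the 13, and not called, were E130310I04Rik (34.1, 31.3 and 32.1 FPKM in control and 7.78, 7.68 and 4.68 FPKM in IOP‐treated retinas, adjusted p = 0.0846) and 1700119H24Rik (9.58, 5.48 and 7.38 to 2.68, 0.817 and 0 FPKM, adjusted p = 0.0843).

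Cholesterol synthesis genes had small negative changes of like size in the 3 mice. None of 18 was called in the paired fit and 2, Insig1 among them, were called lower without the pairing, but 15 of 18 were lower in every mouse, as were 19.5% of all genes. The list medians were -0.49, -0.49 and -0.52 by mouse. Insig1, a sterol sensor of the same pathway, had 23, 26.7 and 25.2 FPKM in control and 7.16, 14.9 and 7.73 FPKM in IOP‐treated retinas (adjusted p = 0.0725), and its groups did not overlap.

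**Figure D3:**
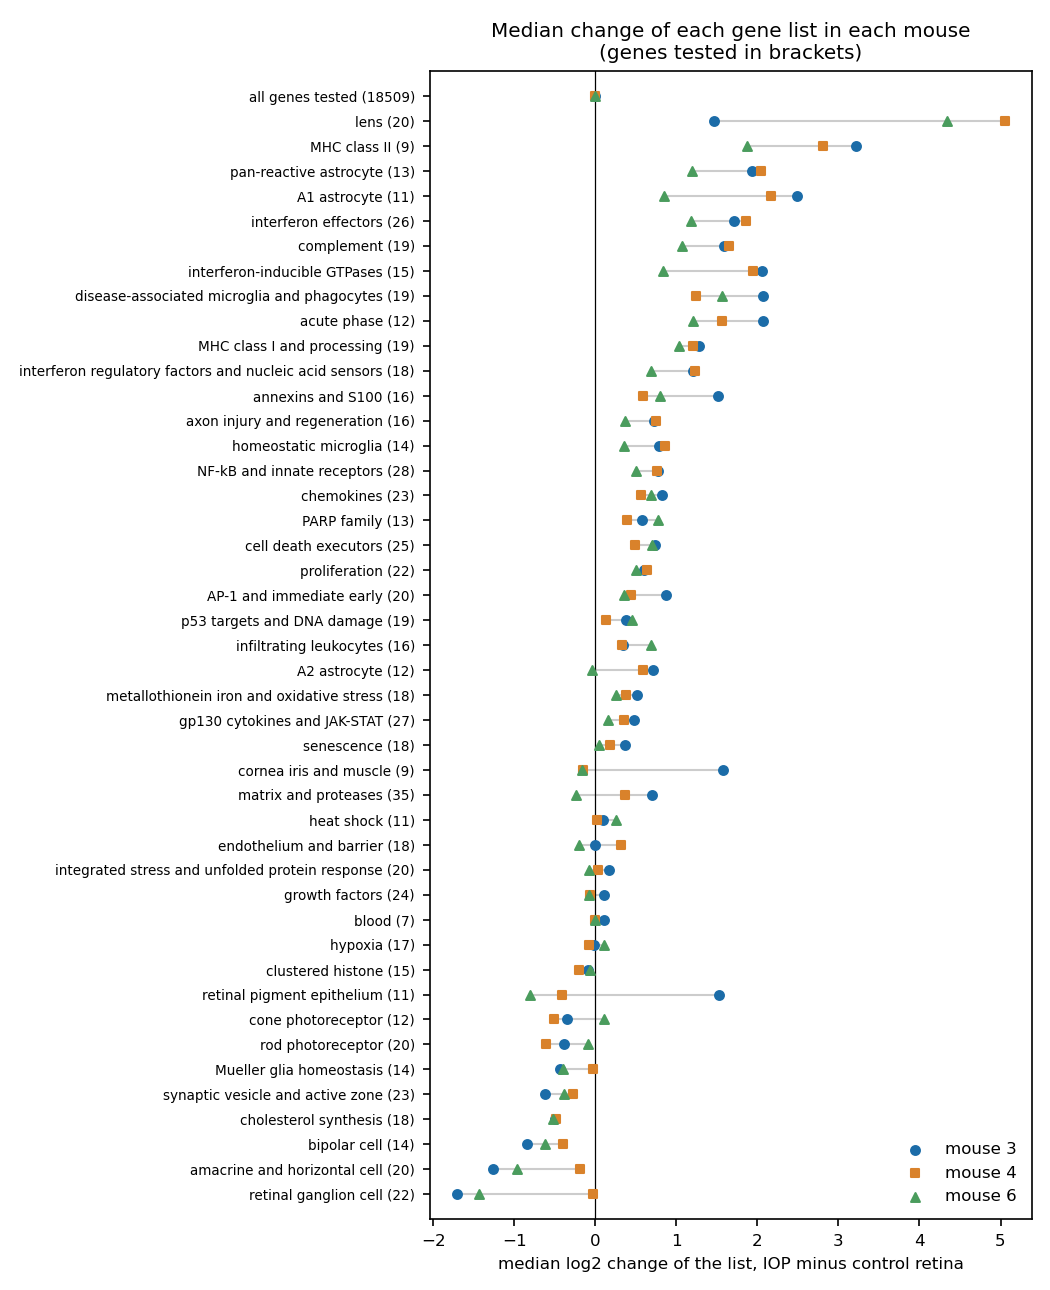
Median log2 change (IOP‐treated minus control) of each of the 44 gene lists and of all genes tested, 1 point per mouse, with the number of genes tested in brackets. The lists of interferon effectors, both MHC classes, complement and pan-reactive astrocytes lie above 0 in all 3 mice, cholesterol synthesis lies at -0.49, -0.49 and -0.52, and the RGC list splits mouse 4 at -0.02 from mice 3 and 6 at -1.71 and -1.43.

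The mice differed in the neurons of the inner retina. RGC genes lay far below the control level in mice 3 and 6 and near it in mouse 4. The summed FPKM of the 22 RGC genes was 1175, 1350 and 1469 in the controls and 309, 1277 and 520 in the IOP‐treated retinas. None of the 22 genes was called, with or without the pairing, the median change was -1.0, and by mouse it was -1.71, -0.02 and -1.43. All 22 were lower in mouse 3 and all 22 in mouse 6, and in mouse 4 there were 12 lower and 10 higher. Nefl, the light neurofilament of long axons, had 219, 227 and 266 FPKM in control and 34.8, 192 and 42.6 FPKM in IOP‐treated retinas (adjusted p = 0.207). Thy1, a surface protein of RGCs, had 188, 219 and 235 FPKM in control and 43.7, 209 and 63.4 FPKM in IOP‐treated retinas (adjusted p = 0.214). Rbpms, an RNA-binding protein of all RGCs, had 26.7, 33.4 and 40.8 FPKM in control and 11.1, 36 and 10.1 FPKM in IOP‐treated retinas (adjusted p = 0.26) and Pou4f1 (Brn3a) had 9.07, 9.16 and 12.8 FPKM in control and 1.67, 10.5 and 4.88 FPKM in IOP‐treated retinas (adjusted p = 0.278). In each of these 4 genes mouse 4 lay nearer its control level than the other mice did.

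Opn4, the photopigment melanopsin of the RGCs that set the body clock, had 2.83, 3.88 and 3.74 FPKM in control and 1.57, 4.76 and 2.02 FPKM in IOP‐treated retinas, higher in mouse 4 and lower in mice 3 and 6. Pou4f3 had the largest negative change of the 22 genes in mouse 4, -0.97 (1.84, 3.69 and 2.22 FPKM in control and 0.385, 1.4 and 0 FPKM in IOP‐treated retinas, adjusted p = 0.153), at levels of a few FPKM.

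**Figure D4:**
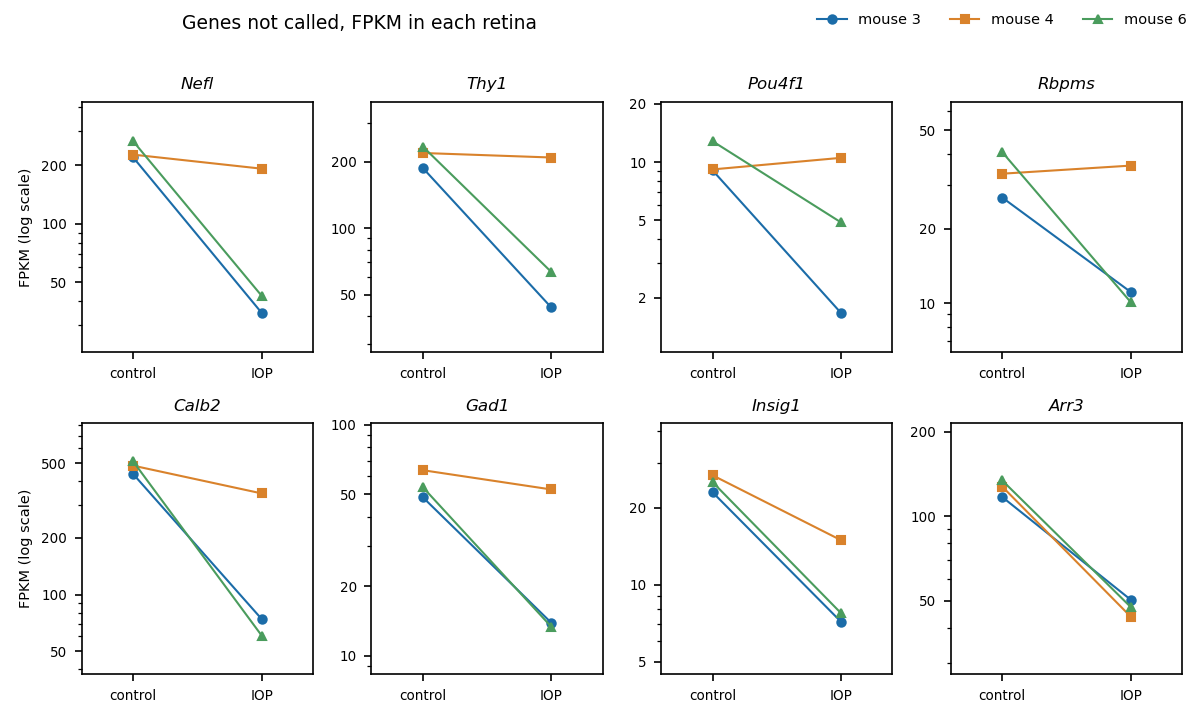
FPKM of 8 genes that were not called, in each retina (log axis, range set for each gene), with lines joining the eyes of 1 mouse. For Nefl, Thy1, Pou4f1, Rbpms, Calb2 and Gad1 mouse 4 lies nearer its control than mice 3 and 6 do. Nefl, Thy1, Calb2, Gad1, Insig1 and Arr3 are lower after injury in every mouse, and Pou4f1 and Rbpms are higher in mouse 4.

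In the amacrine and horizontal cell list the medians were -1.26, -0.19 and -0.96, 0 of 20 genes were called and 16 were lower in every mouse. In mouse 4, 17 of the 20 were lower, by less than in the other mice at the median. Calb2 (calretinin), the most abundant of them, had 437, 485 and 510.2 FPKM in control and 74.2, 345 and 60.6 FPKM in IOP‐treated retinas (adjusted p = 0.175), a log2 change of -2.03. Gad1, which makes the transmitter GABA, had 48.5, 63.6 and 53.7 FPKM in control and 13.9, 52.5 and 13.4 FPKM in IOP‐treated retinas (adjusted p = 0.214), and the glycine transporter Slc6a9 had 52.2, 56.1 and 52.4 FPKM in control and 26.2, 41.2 and 17.7 FPKM in IOP‐treated retinas (adjusted p = 0.13). Bipolar cell genes had medians of -0.84, -0.40 and -0.62. Grm6, the receptor through which ON bipolar cells read rods and cones, had 12.5, 16.6 and 11.9 FPKM in control and 3.87, 10.8 and 2.76 FPKM in IOP‐treated retinas (adjusted p = 0.183). Synaptic genes had medians of -0.62, -0.27 and -0.39, and 8 of the 23 genes were higher in mouse 6. Snap25, of the vesicle fusion machinery, had 887, 943 and 1138 FPKM in control and 441, 810.1 and 870.3 FPKM in IOP‐treated retinas. Syp, a synaptic vesicle protein, had 969.9, 897 and 833 FPKM in control and 815, 732 and 1554 FPKM in IOP‐treated retinas, higher in mouse 6 and lower in mice 3 and 4.

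Genes averaging 1 FPKM or more were also counted by mouse. At least 2-fold lower were 831 genes in mouse 3, 62 in mouse 4 and 1434 in mouse 6, and at least 2-fold higher 852, 515 and 1292. There were 540 genes at least 2-fold lower in mice 3 and 6 and within 1.5-fold of the control in mouse 4, and they held 15 of the 22 RGC genes and 8 of the 20 amacrine and horizontal cell genes. The same pattern with mouse 3 or mouse 6 as the odd one held 4 and 2 genes. In the higher direction the counts were 44 for mouse 4, 7 for mouse 3 and 49 for mouse 6. These groups were formed from the values and are a description. In the GCV mice, whose values did not enter the choice, the median change of the 540 genes was -0.39, -1.21 and -1.57 in mice 1, 2 and 5, and 494 of the 540 (91.5%) were lower in all 3, against 24.5% of all 12854 genes averaging 1 FPKM or more. The RGC list medians in those mice were -0.54, -1.83 and -1.79. Across the 12854 genes, the changes of mice 3 and 4 had a Pearson r of 0.533, those of mice 3 and 6 of 0.513 and those of mice 4 and 6 of 0.448, and genes are not independent replicates. With mouse 4 left out, 1 gene was called with the pairing and 307 without it, 166 higher and 141 lower. Without the pairing, 9 were called with mouse 3 left out and 65 with mouse 6 left out. The fits that drop both the pairing and a mouse were added after the values had been seen, and mouse 4 was by then known to differ in these genes, so their calls lend the falls no support.

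Photoreceptor genes ordered the mice in another way, a difference that was not tested. The rod list had medians of -0.39, -0.60 and -0.09, so that mouse 4 was the lowest here, and 0 of 20 genes were called. Nrl had 1052, 870.1 and 896 FPKM in control and 713, 479.7 and 453 FPKM in IOP‐treated retinas (adjusted p = 0.206). Pdc (phosducin) went the other way in 1 library, with 8258, 7347 and 6987 FPKM in control and 5186, 4204 and 19061 FPKM in IOP‐treated retinas. Of 12 cone genes 0 were called, with medians of -0.34, -0.51 and 0.11 by mouse. Gnb3, the beta subunit of cone transducin, had 283, 264 and 248 FPKM in control and 710.0, 485 and 843 FPKM in IOP‐treated retinas, higher in every mouse (adjusted p = 0.094 with the pairing and 0.0251 without it). Opn1sw, the blue cone opsin, had 335, 231 and 292 FPKM in control and 198, 118 and 271 FPKM in IOP‐treated retinas (adjusted p = 0.232). Of 14 genes of Mueller glia homeostasis 7 were lower in every mouse and 0 were called lower. Glul, the enzyme that turns glutamate to glutamine, had 820.2, 902 and 815 FPKM in control and 306, 437 and 457 FPKM in IOP‐treated retinas (adjusted p = 0.213), lower in every mouse, and Kcnj10, their potassium channel, had 14.5, 18.2 and 17 FPKM in control and 8.11, 23.8 and 9.16 FPKM in IOP‐treated retinas, higher in mouse 4 and lower in mice 3 and 6.

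Several programs were measured with few or no calls. The integrated stress and unfolded protein response had 0 of 20 genes called (median 0.05), heat shock 0 of 11 (0.09), hypoxia 0 of 17 (-0.03), and endothelium and barrier 0 of 18 (0.09). By mouse, the endothelium and barrier medians were 0, 0.32 and -0.20. Atf4 had 223, 193 and 182 FPKM in control and 282, 205 and 221 FPKM in IOP‐treated retinas and Ddit3 (CHOP) 54.4, 50.3 and 61.2 FPKM in control and 78.8, 61.5 and 80.6 FPKM in IOP‐treated retinas. In the list of metallothionein, iron and oxidative stress 0 of 18 were called (median 0.35), and Hmox1, the heme-degrading enzyme, had 3.56, 3.66 and 5.04 FPKM in control and 71, 13.9 and 25.7 FPKM in IOP‐treated retinas, highest in mouse 3 (adjusted p = 0.162). Of 35 matrix and protease genes 1 was called, Spp1 (median 0.18, and 0.70, 0.36 and -0.23 by mouse). Of 16 annexin and S100 genes 1 was called (median 0.98), and 13 of 16 were higher in every mouse. That gene was Anxa3 (0.99, 0.92 and 1.52 FPKM in control and 7.83, 5.19 and 7.63 FPKM in IOP‐treated retinas, log2 change 1.87 ± 0.24 SE, adjusted p = 0.0485). Of 12 acute phase genes 0 were called (median 1.35), among them Saa3, with 0.712, 0.601 and 0.629 FPKM in control and 17.4, 69.6 and 49 FPKM in IOP‐treated retinas (adjusted p = 0.131).

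Genes of 4 lists named for tissues outside the retina differed in level between the libraries. Whether cells of the retina made any of these transcripts was not tested. The summed FPKM of 20 lens genes was 72.3, 119 and 140 in the controls and 322, 6828 and 5036 in the IOP‐treated retinas, far higher in mice 4 and 6 than in mouse 3. Cryaa, the main lens crystallin, had 1.34, 14.1 and 13.8 FPKM in control and 32.6, 1842 and 1345 FPKM in IOP‐treated retinas, and the lens channel Mip 0.391, 0.50 and 0.464 FPKM in control and 0.255, 4.22 and 31.6 FPKM in IOP‐treated retinas. Pigment epithelium genes summed to 150, 93.0 and 475 FPKM in control and 498, 68.8 and 306 FPKM in injured retinas, cornea, iris and muscle genes to 25.1, 18.9 and 38.1 against 131, 14.9 and 14.7 FPKM, and blood genes to 41.8, 24.6 and 24.1 against 146, 60.3 and 9.92 FPKM. The muscle protein Des stood at 37.1 FPKM in the injured retina of mouse 3 and below 1 FPKM in the other 5. No gene of these 4 lists was called. The lens sums moved with injury in all 3 mice, and their part in the other results was not tested.

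**Figure D5:**
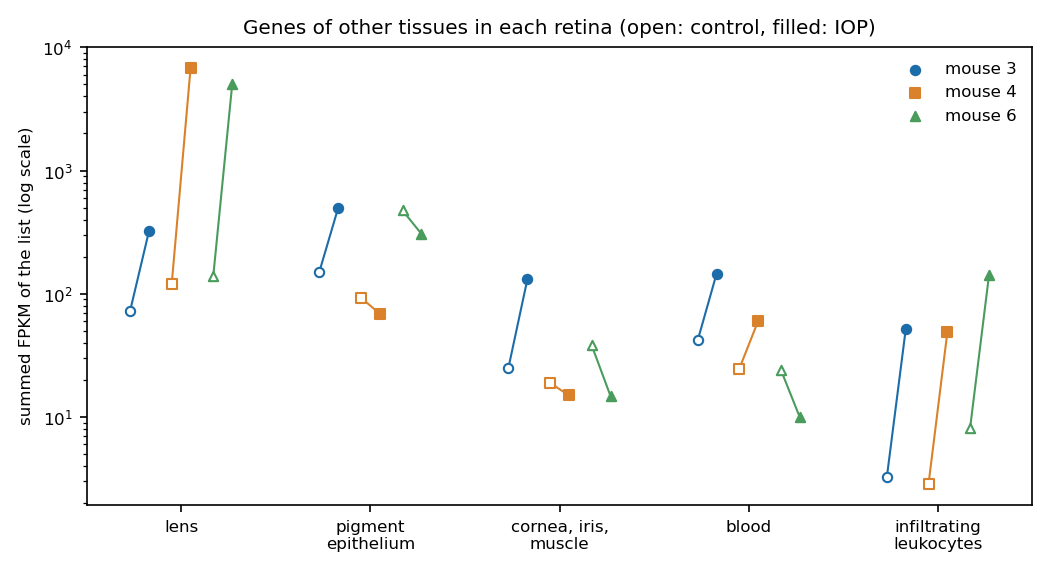
Summed FPKM (log axis) of the genes of lens, retinal pigment epithelium, cornea with iris and muscle, blood, and infiltrating leukocytes in each retina, with open symbols for control, filled symbols for IOP‐treated retinas and lines joining the eyes of 1 mouse. Lens genes reach 6828 and 5036 FPKM in mice 4 and 6 and 322 FPKM in mouse 3, and the leukocyte sums are higher after injury in each mouse.

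The response without GCV was set against that with GCV gene by gene. The difference was called for 0 of 18509 genes (0.0%) with limma, whose smallest adjusted p was 0.992, and 378 genes had an unadjusted p under 0.05. In the contrast of the GCV mice 144 of 18509 genes (0.778%) were called. Of the 75 genes called without GCV, 74 had the same direction in each of the 3 GCV mice (of all genes averaging 1 FPKM or more, 24.9% were higher and 24.5% lower in all 3), and 60 were called in that contrast, which comes from the same fit and shares its estimate of the spread. Spp1 was among those not called there, with changes of 4.18 without and 1.99 with GCV, and a difference whose adjusted p was 0.992. The smallest p of the difference belonged to Trpc2, Gm2011, Cd59b, Tmem79 and Zdhhc23, all below 4 FPKM in these retinas, at an adjusted p of 0.992 each. A p that misses the threshold does not show that the responses were alike.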

How the data were processed

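Retinal poly(A) RNA was sequenced from both eyes of 6 mice, and each mouse is a separate animal. The deposited table holds FPKM values for 24340 gene names and 12 libraries, 0 of its sample columns were left unused, and the unit was inferred from the values and the authors' notes. The submitters' processing notes name TopHat2, Bowtie2, Cufflinks, Cuffdiff and mm10, whereas the authors' methods state counting with HOMER on exons of RefSeq genes, and which of these made the table is not stated. The kit was stranded, but whether strand was used in counting is not stated.

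The 18509 genes above 0 in any library were fitted as log2(FPKM + 1) with limma 3.58.1 (R 4.3.3) with an intensity trend, all 12 libraries and the mouse as a block. Eyes with the same number come from 1 animal, so the numbers pair the samples. Within groups, the deviations of paired eyes correlated at r = -0.12 to 0.39 across 12910 genes. Benjamini-Hochberg adjustment covered all genes tested, at 0.05, and no count model was used, since the values are not counts. The read depth is not given with the table. It was estimated from the steps between low values of genes with a single transcript, where 79.6% to 85.4% of the values lay within 0.15 of a whole fragment, against 30% by chance. FPKM values give no counting interval.

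The text names the largest rises and falls among called genes, starred genes and the leading and most abundant genes of 44 lists, the genes with the smallest p and those with the smallest p of the difference. Genes named outside this rule were chosen after their values were seen. Among list genes they are Arr3, C1qc, Casp8, Cd3e, Ciita, Des, Ifi44, Ifit1, Il6, Insig1, Ly6c2, Opn4, Pdc, Pou4f3, Rtp4 and Tnf, and outside the lists they are the called genes that no other part of the rule names. The members and lists were chosen with earlier results of these data known. Promoters came from RefSeq (GRCm38.p6), for 14424 of the 18509 genes. The script was tested on simulated data. Alternatives were no block, 6 libraries alone, another pseudocount, a filter of 1 FPKM in 3 libraries, 2 scalings, no trend, array weights, other thresholds and each mouse left out.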

Additional observations from a re-analysis of the deposited data

How the results depend on the processing

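The number of genes called depended on most choices. The genes called and named kept their direction in every setting listed here. Each of the 75 had moved the same way in all 3 mice, so a changed threshold, pseudocount or pairing, or a mouse left out, could not turn it. The 75 calls (72 higher, 3 lower) became 318 (287 and 31) at an adjusted p under 0.1, 3486 (1668 and 1818, 47.8% higher) at an unadjusted p under 0.05, 288 (281 and 7) with a pseudocount of 0.1, 259 (246 and 13) with at least 1 FPKM in 3 libraries, and 120 (114 and 6) with array weights. Median-ratio scaling gave 68, quantile normalization 110 (99 and 11), and the fit without a variance trend 53. Without the replicate block there were 306 (263 and 43, 85.9% higher), and with the 6 libraries alone 0 (0 and 0) with the block and 325 (301 and 24) without it. Leaving out mouse 3, 4 or 6 gave 1 to 5 calls, 0 to 5 higher and 0 to 1 lower, with a share higher of 0% to 100%, lowest without mouse 4, and 0, 0 and 2 of the 75 were among the calls. The added fits without the replicate block gave 9 (8 and 1), 307 (166 and 141, 54.1% higher) and 65 without mouse 3, 4 and 6. The difference between the responses without and with GCV was called for 0 genes in each adjusted fit and for 378 at an unadjusted p under 0.05. Of the 44 lists 20 held a called gene, against 32, 42, 0, 31 and 31 with an adjusted threshold of 0.1, with p under 0.05 before adjustment, with 6 libraries and the block, with 6 libraries and no block, and with the 1 FPKM filter, and 0 to 5 with a mouse left out. The causes were not tested.

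Of the genes that were named and not called, 5 changed sign. Cd3e had 0.0094 with a pseudocount of 0.1, 0.071 with array weights, and from -0.11 to 0.13 with a mouse left out. Gap43 had 0.058 with array weights, and -0.44, 0.061 and 0.18 without mouse 4, 6 and 3. Pdc had 0.14 with quantile normalization, and -0.74, 0.32 and 0.39 without mouse 6, 3 and 4. Zdhhc23 ran from -0.21 without mouse 4 to 0.0024 without mouse 6. Syp had -0.13 with array weights and ran from -0.27 without mouse 6 to 0.32 without mouse 4. Of the 36 lists with a median of at least 0.1 in size, that of cornea, iris and muscle changed sign, to -0.026 with a pseudocount of 0.1 and -0.15 without mouse 3. With 3 mice and an injured retina of mouse 6 at about 3980000 fragments, genes below 1 FPKM were measured with few fragments.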
